A study of Oryza sativa Japonica Group with 24 samples.

Results

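The strigolactone genes described here are 8 rice loci chosen by their locus identifiers: 3 that encode early enzymes of synthesis (D27, D17 and D10), 3 that encode the signalling machinery (D14, D3 and D53) and 2 that encode transcription factors upstream of synthesis (NSP1 and NSP2). Of these 8, 7 had a row among the 57668 features of the deposited gene table. D27 was not analysed here.

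Strigolactones are plant hormones made from carotenoids. D27 isomerises beta-carotene, the carotenoid cleavage dioxygenases D17 (the CCD7 enzyme) and D10 (the CCD8 enzyme) cut it to carlactone, and cytochrome P450 enzymes of the CYP711A (MAX1) family finish the molecule. The receptor D14, an alpha/beta hydrolase, binds the hormone and joins the F-box protein D3 to mark the repressor D53 for degradation. The hormone restrains tillering in the shoot, and roots short of phosphate release it into the soil, where it attracts arbuscular mycorrhizal fungi.

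The study sequenced mRNA from roots and shoots of Japonica rice seedlings under phosphate (Pi) supply of 10 µM (low Pi) or 200 µM (high Pi). Each tissue had 4 groups of 3 libraries: wild type (WT) at low Pi, plants of a line with raised expression of bHLH6, a basic helix-loop-helix factor (bHLH6-OV), at high Pi, the T-DNA mutant spx4 at high Pi, and WT at high Pi. Seedlings entered treatment at 7 days of age and stayed in it for 2 weeks; roots or shoots of 3 of them were pooled for every library. SPX4 is an SPX-domain protein that restrains phosphate signalling, low Pi libraries of either line were not analysed here, and the promoter of the overexpression construct and the number of independent lines are not given in the sources used here.

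The 24 libraries held 20971026 to 29645159 reads in genes. The level of bHLH6 itself in bHLH6-OV roots was 134 ± 25.6 FPKM, against 4.75 ± 1.32 FPKM in WT high Pi roots, and in bHLH6-OV shoots 105 ± 17.5 FPKM, against 5.24 ± 0.0435 FPKM in WT high Pi shoots (SD, n = 3). In the other shoot groups bHLH6 was also above WT high Pi. It had 9.25, 83.1 and 73.8 FPKM in WT low Pi shoots and 14.5, 21.8 and 32.8 in spx4 shoots. In roots it averaged 8.48 ± 8.04 FPKM in WT at low Pi and 3.78 ± 3.72 in spx4 (SD, n = 3). SPX4 remained detectable in the mutant, at 6.21 ± 0.863 FPKM in spx4 roots and 11.3 ± 0.193 in WT roots, and at 7.67 ± 0.89 FPKM in spx4 shoots and 13.8 ± 1.61 in WT shoots (SD, n = 3). The 3 root markers (RCc3, IRT1 and LSI1) summed to 2270 to 3320 FPKM in roots and 9.17 to 36.3 FPKM in shoots, and the 4 shoot markers (2 Rubisco small subunits and 2 light-harvesting proteins) to 14.7 to 629 FPKM in roots and 8130 to 55400 FPKM in shoots, so each library showed the markers of its labelled tissue. WT low Pi shoot replicate 1 had the lowest shoot-marker sum, 8130 FPKM, against 33700 and 34700 in the other two of its group, and results that turn, lose their call or move by over 1.5 times without it are also given so.

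Values are FPKM, read counts scaled by gene length and by a divisor for each library. That divisor was 1.153 to 1.299 times the reads in genes in roots and 0.7329 to 1.039 times in shoots. It is therefore not the number of reads in genes, and levels can be set side by side between genes only as FPKM. Differences are log2 fold changes of FPKM + 1, which understate the change of genes near or below 1 FPKM, with 95% intervals from limma. A gene counted as called at a Benjamini-Hochberg adjusted p under 0.05 over all genes tested. Genes were tested in a tissue when their mean over its 12 libraries reached 1 FPKM.

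In WT high Pi plants the 7 genes covered a wide range of levels. D14 was by far the most abundant, at 301 FPKM in roots and 294 in shoots. The table's gene models of D14 and D10 span 4430 and 8246 bases, against 1557 and 3825 bases in a reference annotation of another assembly, so the length that scales their FPKM may differ from that of the gene. The length used for the FPKM of D14, 2336 bases, exceeds its whole reference length. Reads from outside the gene may therefore be counted in the D14 level and in its changes. Their part was not tested. D3 stood at 11.8 FPKM in both tissues and D53 at 10.1 in roots and 16.5 in shoots. The enzyme genes were close to 1 FPKM, D17 at 0.874 in roots and 1.3 in shoots and D10 at 0.464 in roots and 1.06 in shoots. NSP1 and NSP2 were at 1.17 and 0.892 FPKM in roots, while in WT shoots NSP1 had 0 reads in all 3 libraries and NSP2 1 read in 1 library.

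Between tissues of WT high Pi plants, NSP1 and NSP2 were called higher in roots and D53 and D17 lower, 4 of 7 members, where 84.5% of all 24643 genes tested were called. The log2 difference was 1.11 for NSP1 (limma adjusted p = 1.97e-07), 0.90 for NSP2 (5.16e-05), −0.65 for D53 (0.00265) and −0.30 for D17 (0.028). The NSP values set roots against a shoot level at or below 1 read and so depend on the added 1 FPKM. With values scaled to a common total of transcripts (TPM), which moved the median of all genes from 0.13 to 0.58, the D53 difference was −0.19 (limma adjusted p = 0.355) and that of D17 −0.05 (0.766), while that of D3 turned from −0.00 to 0.47 (0.00204) and D14, at 0.04 here, reached 0.54 (0.00483). The D17 call was also lost without WT root replicate 1 or WT shoot replicates 2 or 3 (adjusted p up to 0.17).

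Of the 6 members tested in roots, D17, NSP1 and NSP2 rose and D14 fell in WT low Pi roots against WT high Pi roots, 4 of 6 called where 31.4% of all 22090 genes tested were called. The median log2 change of the 6 was 0.41, beside 0.02 over all genes tested. D17 and NSP2 averaged under 1 FPKM in WT high Pi roots and passed the filter through low Pi, so these genes had to differ to be tested, and their share is read with that in mind.

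D17 (LOC_Os04g46470, chromosome 4, 27567824 to 27570926, plus strand, coordinates as in the deposited table, whose build is not given) had 1.76, 1.43 and 1.9 FPKM in WT low Pi roots, against 0.609, 0.99 and 1.02 in WT high Pi roots. Every low Pi root library lay above every high Pi one, and the means differed 1.94-fold. The log2 change was 0.53 (95% interval 0.24 to 0.81, limma adjusted p = 0.00984, n = 3 each). The same 12 root libraries gave 42 to 136 reads for D17. An overlapping gene on the opposite strand, LOC_Os04g46480, shares 593 bases with D17 and averaged 14 ± 2.94 FPKM in WT low Pi roots and 22.4 ± 0.83 in WT high Pi roots (SD, n = 3). Whether counting used strand is not given in the sources used here, so reads of the shared stretch cannot be told apart.

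D10 (LOC_Os01g54270, chromosome 1, 31220321 to 31228566, minus strand), which acts after D17, averaged 0.645 FPKM over the 12 root libraries and fell under the filter. It had 1.26, 1 and 1.81 FPKM in WT low Pi roots, from 67 to 125 reads, and 0.435, 0.46 and 0.499 FPKM in WT high Pi roots, from 30 to 32 reads. The ranges were apart, and the means differed 2.92-fold. In the fit with no filter on low levels the log2 change was 0.67 (limma adjusted p = 0.00221).

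NSP1 and NSP2 are GRAS-domain transcription factors, named in legumes for their part in nodulation signalling, and are needed in rice for the expression of strigolactone synthesis genes. NSP1 (LOC_Os03g29480, chromosome 3, 16804298 to 16805869, minus strand) had 7.54, 11.7 and 12.2 FPKM in WT low Pi roots, against 1.25, 0.938 and 1.34 in WT high Pi roots. NSP2 (LOC_Os03g15680, chromosome 3, 8651497 to 8653224, plus strand) had 5.85, 10.5 and 14.4 FPKM in WT low Pi roots, against 0.801, 0.789 and 1.09 in WT high Pi roots. For both genes the lowest low Pi root library was several times the highest high Pi one. The means differed 8.94-fold for NSP1 and 11.5-fold for NSP2, with log2 changes of 2.38 (95% interval 1.99 to 2.77, limma adjusted p = 3.16e-06) and 2.50 (2.02 to 2.98, adjusted p = 1.15e-05).

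**Figure D1:**
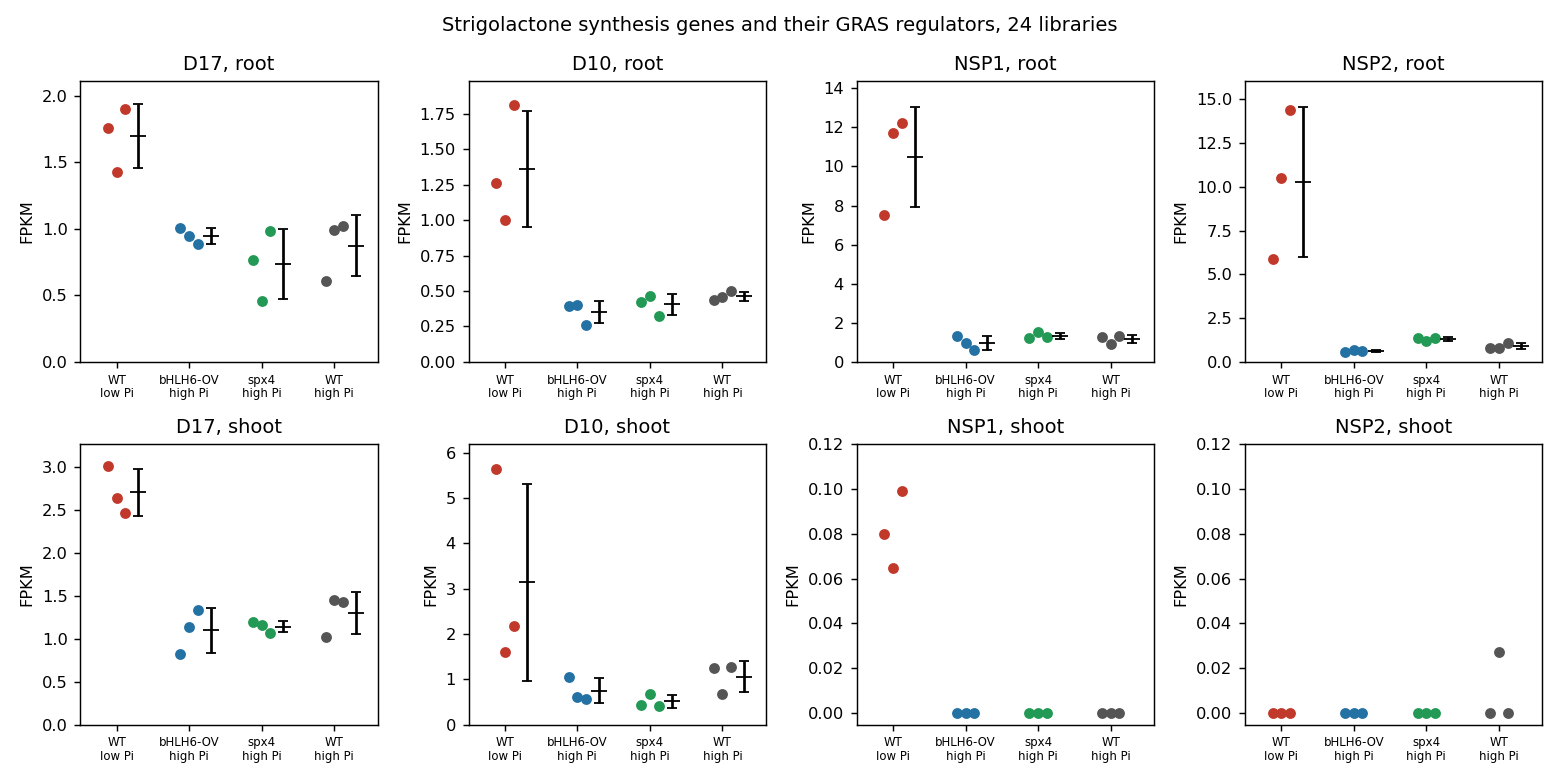
FPKM of the synthesis genes D17 and D10 and of the regulators NSP1 and NSP2 in the 12 root libraries (upper row) and 12 shoot libraries (lower row). Each point is a library, and the bar beside each group is its mean ± SD (n = 3; not drawn for NSP1 and NSP2 in shoots, where no library had more than 3 reads). NSP1 and NSP2 rise above 5 FPKM in WT low Pi roots alone of the groups shown.

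D14 (LOC_Os03g10620, chromosome 3, 5422148 to 5426577, plus strand), the receptor, had 90.1, 151 and 109 FPKM in WT low Pi roots, against 286, 316 and 301 in WT high Pi roots. The ranges were far apart, and the low Pi mean was 0.388 of the high Pi mean (log2 −1.39, 95% interval −1.76 to −1.02, limma adjusted p = 0.000123). D3 (LOC_Os06g06050, chromosome 6, 2780715 to 2785271, plus strand) had 8.81, 13.1 and 9.16 FPKM in WT low Pi roots and 11.1, 12.4 and 11.9 in WT high Pi roots, which overlapped (log2 −0.19, limma adjusted p = 0.285). Without WT low Pi root replicate 2 the D3 change was −0.35 (adjusted p = 0.0157). D53 (LOC_Os11g01330, chromosome 11, 194176 to 199479, plus strand) had 11.6, 12.4 and 13.9 FPKM in WT low Pi roots and 9.99, 10.7 and 9.75 in WT high Pi roots, a log2 difference of 0.29 (limma adjusted p = 0.114) although the libraries did not overlap. It passed the test when only these 6 libraries were fitted (adjusted p = 0.0378).

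All 4 shoot markers were called lower in low Pi roots, their sum running from 14.7 to 38.8 FPKM in WT low Pi roots and from 133 to 170 FPKM in WT high Pi roots; 2 of the 3 root markers were also called lower. Their part in the result for D14 and the other members was not tested. In bulk tissue, fewer cells of a type and less RNA per cell cannot be told apart.

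**Figure D2:**
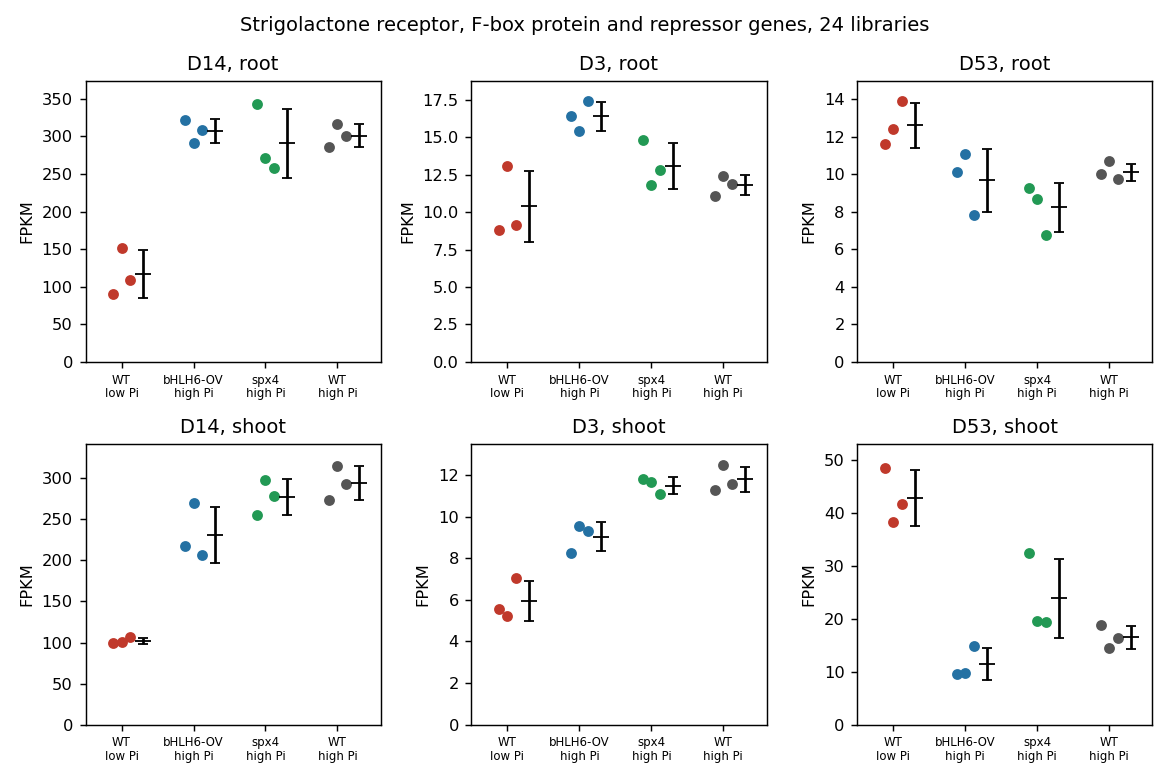
FPKM of the receptor gene D14, the F-box gene D3 and the repressor gene D53 in the 12 root libraries (upper row) and 12 shoot libraries (lower row). Points are libraries and bars the group mean ± SD (n = 3); the WT low Pi group lies lowest for D14 in both tissues and highest for D53 in shoots.

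In shoots, all 5 members tested were called with phosphate supply, where 48.2% of all 19990 genes tested were. D17, D10 and D53 rose and D14 and D3 fell in WT low Pi shoots against WT high Pi shoots. The median log2 change of the 5 was 0.69, beside −0.05 over all genes tested. D10 averaged 1.06 FPKM or less in the other 3 shoot groups and passed the filter through low Pi, so it had to differ to be tested, and the count is a description only. NSP1 and NSP2 were not tested in shoots.

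D14 had 98.9, 101 and 107 FPKM in WT low Pi shoots, against 274, 315 and 293 in WT high Pi shoots. The low Pi libraries were tightly grouped, and their mean was 0.348 of the high Pi mean (log2 −1.51, 95% interval −1.76 to −1.26, limma adjusted p = 1.74e-06). D3 had 5.58, 5.22 and 7.07 FPKM in WT low Pi shoots, against 11.3, 12.5 and 11.6 in WT high Pi shoots, a mean ratio of 0.505 with no overlap (log2 −0.89, limma adjusted p = 3.23e-05). The receptor and its F-box partner both fell in low Pi shoots.

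D53 moved the other way. It had 48.6, 38.3 and 41.8 FPKM in WT low Pi shoots, against 18.8, 14.5 and 16.3 in WT high Pi shoots. The groups were apart by a wide margin, with means differing 2.59-fold (log2 1.32, 95% interval 0.87 to 1.78, limma adjusted p = 0.000371).

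D17 had 3.01, 2.64 and 2.47 FPKM in WT low Pi shoots, against 1.02, 1.45 and 1.43 in WT high Pi shoots, a 2.08-fold difference with no overlap (log2 0.69, limma adjusted p = 0.000886). The overlapping gene on the opposite strand averaged 12.1 ± 0.948 FPKM in WT low Pi shoots and 12.9 ± 1.02 in WT high Pi shoots (SD, n = 3). D10 had 5.64, 1.61 and 2.18 FPKM in WT low Pi shoots, against 1.25, 0.666 and 1.27 in WT high Pi shoots. The first low Pi library, with 324 reads, stood well above the other two, with 76 and 101 reads, but all 3 exceeded the high Pi libraries. The log2 change of D10 was 0.90 (95% interval 0.26 to 1.53, limma adjusted p = 0.0244). Without WT low Pi shoot replicate 1 it was 0.50 (adjusted p = 0.0458), and the call was lost without WT high Pi shoot replicate 2 (0.0901) or when only these 6 libraries were fitted (0.0825).

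NSP1 had 3, 2 and 3 reads in the WT low Pi shoot libraries and 0 reads in the other 9 shoot libraries. These are at or below the 3 reads that a count of 0 still allows, and no fold is given. NSP2 had 0 reads in all low Pi shoots. Both markers of root tissue that passed the shoot filter (LSI1 and IRT1) were called lower in WT low Pi shoots, where the 3 root markers summed to 9.17 to 14.7 FPKM against 26.9 to 30.4 in WT high Pi shoots. The third root marker, RCc3, averaged 0.32 FPKM in WT low Pi shoots and 0.306 FPKM in WT high Pi shoots. None of the 4 shoot markers was called. Their part in the shoot results was not tested.

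**Figure D3:**
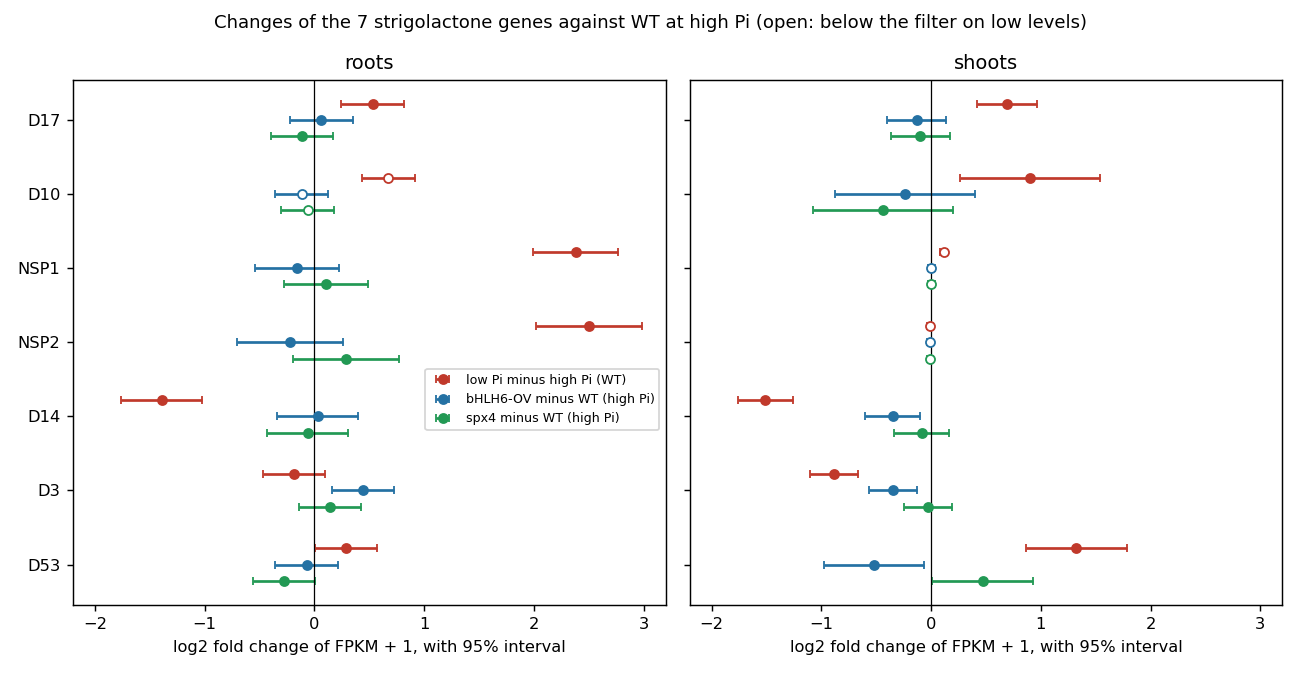
Log2 fold change of FPKM + 1 for each of the 7 genes against WT at high Pi, with 95% intervals, in roots (left) and shoots (right). Red is low Pi, blue bHLH6-OV and green spx4; open points lie below the filter on low levels. The low Pi changes of NSP1 and NSP2 (2.38 and 2.50) are seen in roots, and the D53 change is larger in shoots (1.32) than in roots (0.29).

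The low Pi responses of 4 of 7 members differed between tissues in a test of the difference itself, where 37.1% of all genes tested were called. Root minus shoot, the low Pi change differed by 2.27 for NSP1 (limma adjusted p = 4.55e-08), 2.51 for NSP2 (1.83e-07), 0.70 for D3 (0.00285) and −1.04 for D53 (0.00386). The NSP values rest on shoot levels near 0. NSP2 passed the filter through low Pi roots, so it had to differ to be tested, and its value is a description only. For D14 the difference was 0.12 (95% interval −0.31 to 0.55, adjusted p = 0.676), for D17 −0.16 (−0.52 to 0.20, 0.488) and for D10 −0.23 (−0.90 to 0.44, 0.615), so the response of these 3 was not shown to differ. Without WT low Pi shoot replicate 1 the D10 difference turned to 0.18 (limma adjusted p = 0.538), and that of D17 was −0.10 (0.692).

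The bHLH6-OV and spx4 comparisons with WT use the same WT high Pi libraries as the low Pi comparison, and are given side by side. In bHLH6-OV roots, 1 of 6 members was called, where 18% of all genes tested were. The median log2 change of the members was −0.02, the same as over all genes tested. D3 had 16.4, 15.4 and 17.4 FPKM in bHLH6-OV roots, against 11.1, 12.4 and 11.9 in WT roots, with no overlap (log2 0.44, 95% interval 0.16 to 0.72, limma adjusted p = 0.0347). This call was fragile: leaving out any 1 of the 6 libraries ended it (adjusted p 0.0551 to 0.108), as did dropping the filter (0.0577). D14 was at 322, 291 and 309 FPKM in bHLH6-OV roots, within the WT range of 286 to 316 apart from 1 library (log2 0.03). NSP2 had 0.57, 0.676 and 0.606 FPKM in bHLH6-OV roots, below all WT libraries, but was not called (log2 −0.22, limma adjusted p = 0.519). All 4 shoot markers were called higher in bHLH6-OV roots, summing to 448 to 629 FPKM there and 133 to 170 FPKM in WT roots. Of the 3 root markers, RCc3 (log2 −0.80, limma adjusted p = 0.00824) and IRT1 (−2.64, 1.47e-08) were called lower. The third, LSI1, went the other way, at 1450, 1220 and 1070 FPKM in bHLH6-OV roots against 925, 925 and 977 in WT roots. The part of these markers in the D3 result was not tested.

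In spx4 roots, none of the 6 members was called by limma, where 2.46% of all genes tested were. None of the 6 had an unadjusted limma p under 0.05, beside 2910 of all 22090 genes tested. Their median log2 change was 0.02, beside −0.00 over all genes tested. The largest difference was that of NSP2, at 1.36, 1.18 and 1.35 FPKM in spx4 roots and 0.801, 0.789 and 1.09 in WT roots (log2 0.28, 95% interval −0.20 to 0.77, limma adjusted p = 0.664). The 4 shoot markers summed to 178 to 459 FPKM in spx4 roots and 133 to 170 in WT roots. The 3 root markers summed to 2610 to 3230 FPKM in spx4 roots and 3120 to 3320 in WT roots. Of these, IRT1 had 9.94, 11 and 11.8 FPKM in spx4 roots against 48.3, 40.4 and 44 in WT roots. RCc3 and LSI1 overlapped between these groups. The part of these markers was not tested.

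Between the 2 lines, 0 of 6 members were called in roots (6.58% of all genes tested were). D3 and NSP2, 2 of 6, had an unadjusted limma p under 0.05, beside 4978 of all 22090 genes tested. NSP2 averaged 1.3 FPKM in spx4 roots and 0.617 in bHLH6-OV roots with no overlap (log2 0.51, limma adjusted p = 0.199). Same-numbered libraries of these 2 groups deviated together, and with the replicate number as a block over these 6 libraries NSP2 was called (adjusted p = 0.0356), which raised the count to 1. It was also called in the fit on these 6 libraries with no block (0.0251), and not with the block over all root groups (0.178).

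In bHLH6-OV shoots, D14 and D3 fell, 2 of 5 members, where 31.3% of all genes tested were called. The median log2 change of the 5 was −0.35, beside −0.05 over all genes tested. D14 had 217, 270 and 207 FPKM in bHLH6-OV shoots, against 274, 315 and 293 in WT shoots (log2 −0.35, limma adjusted p = 0.0366), and D3 had 8.28, 9.55 and 9.33 FPKM in bHLH6-OV shoots, against 11.3, 12.5 and 11.6 in WT shoots (log2 −0.35, 0.0205). Neither gene's groups overlapped, D14 by a narrow margin. Under TPM scaling, which moved the median of all genes from −0.05 to 0.15 and the share of calls that were higher from 44.7% to 75.4%, the changes were −0.12 for D14 (adjusted p = 0.519) and −0.14 for D3 (0.348). The D14 call was also lost when any 1 of 5 libraries was left out (bHLH6-OV replicates 1 or 3, or any WT replicate; adjusted p 0.0521 to 0.127), and that of D3 without bHLH6-OV replicate 1 or WT replicates 2 or 3 (0.0509 to 0.0818). D53 had 9.54, 9.73 and 14.9 FPKM in bHLH6-OV shoots, against 18.8, 14.5 and 16.3 in WT shoots. Replicate 3 of bHLH6-OV lay within the WT range (log2 −0.52, limma adjusted p = 0.0779), and without that library the change was −0.71 (adjusted p = 0.0274). LSI1, a root marker, was also called lower in bHLH6-OV shoots. The 3 root markers summed to 12.9 to 22.8 FPKM there and to 26.9 to 30.4 in WT shoots. The 4 shoot markers summed to 15400 to 32600 FPKM in bHLH6-OV shoots and 26200 to 36500 in WT shoots. Of these 4, light-harvesting LOC_Os03g39610 had 4680, 6850 and 8150 FPKM against 9960, 9730 and 12100, without overlap. The ranges of the other shoot markers overlapped. The part of these markers in the results was not tested.

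In spx4 shoots, 0 of 5 members were called by limma, where 2.14% of all genes tested were. Of the 5, 1, D53, had an unadjusted limma p under 0.05, beside 3085 of all 19990 genes tested. The median log2 change was −0.08, beside 0.01 over all genes tested. D53 had 32.5, 19.6 and 19.5 FPKM in spx4 shoots, against 18.8, 14.5 and 16.3 in WT shoots, higher in 3 of 3 libraries than any WT library (log2 0.47, 95% interval 0.01 to 0.93, limma adjusted p = 0.308). The first spx4 library stood above the other two. The 4 shoot markers summed to 39400 to 55400 FPKM in spx4 shoots and 26200 to 36500 in WT shoots. The 3 root markers summed to 33.4 to 36.3 FPKM in spx4 shoots and 26.9 to 30.4 in WT shoots. The part of these markers was not tested.

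Of the 5 members tested in shoots, D53 had the largest log2 difference between the 2 lines. The gene averaged 23.9 FPKM in spx4 shoots and 11.4 FPKM in bHLH6-OV shoots, 2.1-fold (log2 0.99, 95% interval 0.53 to 1.45, limma adjusted p = 0.0049), and no library of one group reached the other. The root marker LSI1 was also called higher in spx4 shoots (log2 0.97, limma adjusted p = 0.00492). The 4 shoot markers summed to 39400 to 55400 FPKM in spx4 shoots and 15400 to 32600 in bHLH6-OV shoots, without overlap. The part of these markers in the results was not tested. D3 was also called higher in spx4 shoots (log2 0.32, adjusted p = 0.0307), so 2 of 5 members were called where 32% of all genes tested were. The D3 call was lost under TPM scaling (0.01, adjusted p = 0.952), where the median of all genes moved from 0.06 to −0.24, under median-of-ratios scaling (0.0659) and when any 1 of 5 libraries was left out (all 3 of spx4, and bHLH6-OV replicates 1 or 3; 0.0547 to 0.116). Without bHLH6-OV replicate 2, D14 was called as well (log2 0.38, adjusted p = 0.0297), against 0.27 (0.0933) with it, which raised the count to 3.

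The bHLH6-OV effect on D3 differed between tissues (root minus shoot 0.79, 95% interval 0.44 to 1.14, limma adjusted p = 0.00155), 1 of 7 members called where 28.9% of all genes tested were. It kept its call under all 18 alternatives run (0.64 to 0.85). For spx4, 0 of 7 members were called by limma, where 1.98% of all genes tested were. D53 alone had an unadjusted limma p under 0.05 (root minus shoot −0.75, adjusted p = 0.174), beside 3327 of all 24643 genes tested.

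D53 has a near-identical copy on chromosome 12, LOC_Os12g01360, and reads that match both cannot be assigned with certainty. The ratio of D53 to its copy, in FPKM, ran from 0.798 to 1.03 in the 12 root libraries and from 1.13 to 1.57 in the 12 shoot libraries, without overlap. The copy itself had 30.8, 27.4 and 28.3 FPKM in WT low Pi shoots, against 13.7, 11.1 and 11.8 in WT high Pi shoots (log2 1.18, limma adjusted p = 0.000214). It also rose in WT low Pi roots, at 13.8, 13.3 and 14.7 FPKM against 10.4, 10.4 and 10.5 in WT high Pi roots (log2 0.39, adjusted p = 0.0166), though not without WT low Pi root replicate 3. Over both copies together the pooled level was 36 ± 3.54 FPKM in WT low Pi shoots and 14.4 ± 1.74 in WT high Pi shoots (SD, n = 3), and D53 summed with its copy was called in low Pi roots (log2 0.34, adjusted p = 0.0403).

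**Figure D4:**
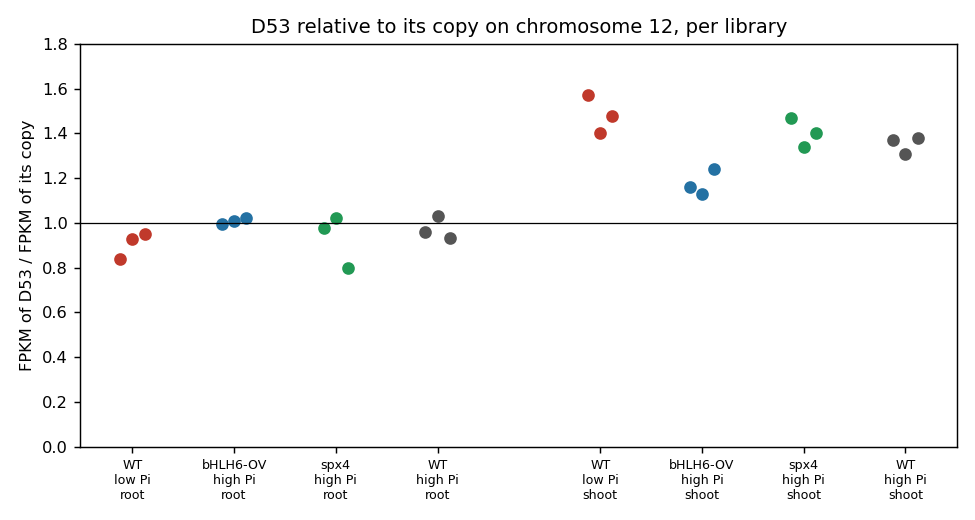
Ratio of FPKM of D53 to FPKM of its chromosome 12 copy in each library, by group; the line marks equal levels. All 12 shoot libraries lie above the line (1.13 to 1.57) and the root libraries lie at 0.798 to 1.03.

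A list of 17 other genes of the pathway, all with a row, was examined, of which 13 were tested in roots and 11 in shoots. In WT low Pi roots 5 of 13 rose and 2 fell, beside 31.4% of all genes called, with a median log2 change of 0.12. Of the late synthesis enzymes, CYP711A2 rose, at 23.6, 24.8 and 30.1 FPKM in WT low Pi roots against 10.5, 10.3 and 10.3 in WT high Pi roots (log2 1.25, limma adjusted p = 8.49e-05), and CYP711A6 fell, at 9.69, 11.6 and 12.2 FPKM against 17, 18.2 and 18.7 (log2 −0.64, 0.00236). CYP711A2 is a short gene model of 384 bases beside its neighbouring copies CYP711A3 and CYP711A4, so its reads may be shared with them. IPA1, an SPL transcription factor that is a target of D53, rose (9.95, 10.1 and 7.98 FPKM in WT low Pi roots, against 4.62, 5.11 and 4.72 in WT high Pi roots, log2 0.82, adjusted p = 7.36e-05), and so did a CCD8-like gene on chromosome 1 (log2 0.72, 0.0058). That gene averaged 1.06 FPKM or less in the other 3 root groups and passed the filter through low Pi, at 2.47 FPKM, so it had to differ to be tested. PHR2, the central transcription factor of the phosphate response, was lower by a small step (log2 −0.23, 0.0178), a call lost without WT low Pi or WT high Pi root replicate 1. ASP1, a corepressor (log2 0.19, 0.0475), lost its call in 10 of 13 alternatives.

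In WT low Pi shoots 4 of 11 of these genes rose and 1 fell, a share near the 48.2% of all genes called, with a median log2 change of 0.09. CYP711A5 rose, at 12.5, 11.2 and 7.16 FPKM in WT low Pi shoots against 4.54, 3.16 and 3.52 in WT high Pi shoots (log2 1.23, limma adjusted p = 0.000772), alongside the D53 copy, SMAX1, a relative of D53 (log2 0.37, 0.00438), and ASP1 (log2 0.25, 0.0287). CKX9, a cytokinin oxidase that responds to strigolactone in rice, fell, at 11.5, 7.63 and 6.19 FPKM against 16.8, 18.3 and 15.2 (log2 −0.94, 0.000928). Without WT low Pi shoot replicate 1 the changes were 1.09 for CYP711A5 and −1.17 for CKX9. CYP711A2, CYP711A3, CYP711A4 and FC1, a branching repressor, had 0 reads in all 12 shoot libraries. DLK2, a homologue of D14, had 0.575, 2.08 and 3.18 FPKM in WT low Pi roots, against 0, 0.0276 and 0 in WT high Pi roots, below the filter (log2 1.43 with no filter, adjusted p = 0.00468); in shoots it was at 74.2 ± 15.9 FPKM at low Pi and 101 ± 1.41 at high Pi (SD, n = 3; log2 −0.47, adjusted p = 0.0589).

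**Figure D5:**
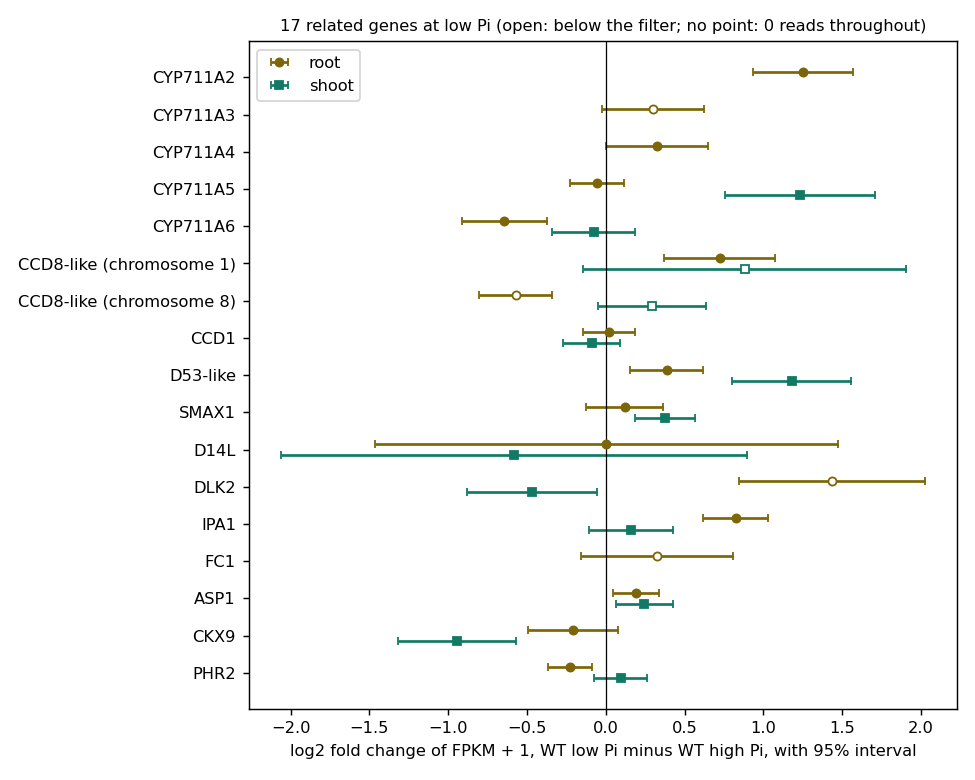
Log2 fold change of FPKM + 1 in WT low Pi against WT high Pi for the 17 other pathway genes, roots (circles) and shoots (squares), with 95% intervals; open symbols lie below the filter and genes with 0 reads in every library of a tissue have no symbol. CYP711A2 and IPA1 rose in roots (1.25 and 0.82) and CYP711A5 in shoots (1.23).

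Among the same genes, bHLH6-OV roots had 1 of 13 higher and 4 lower, beside 18% of all genes called: CCD1, which cuts carotenoids outside this pathway, was higher (log2 0.33, limma adjusted p = 0.0113), and CYP711A2 (−0.89, 0.00189), CKX9 (−0.61, 0.00932), IPA1 (−0.39, 0.015) and the CCD8-like gene on chromosome 1 (−0.61, 0.0226) were lower. The median log2 change of the 13 was −0.08. The chromosome 1 CCD8-like gene lost its call when any 1 of 5 libraries was left out (bHLH6-OV replicates 1 or 2, or any WT replicate), IPA1 without WT root replicate 2 and CCD1 without WT root replicate 3. CYP711A2 stood at 5.31, 5.9 and 4.28 FPKM in bHLH6-OV roots and 10.5, 10.3 and 10.3 in WT roots. A second CCD8-like gene, on chromosome 8, was below the filter; it averaged 0.338 FPKM in bHLH6-OV roots, 0.352 in spx4 roots and 2.06 in WT roots, lower in both lines with no filter (log2 −1.20 and −1.18, limma adjusted p = 6.97e-05 and 0.000122). It was also lower in WT low Pi roots, at 1.07 FPKM against 2.06 in WT high Pi roots (log2 −0.57, adjusted p = 0.00425 with no filter). In spx4 roots 1 of 13 was called, beside 2.46% of all genes, CKX9 (log2 −0.56, 0.0481), a call lost in 11 of 13 alternatives; the median of the 13 was −0.07.

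In bHLH6-OV shoots, where 31.3% of all genes were called, 1 of 11 was higher, SMAX1 (log2 0.55, limma adjusted p = 0.000792), and 4 were lower, D14L, CKX9 (−0.58, 0.0248), CYP711A6 (−0.47, 0.0127) and CCD1 (−0.31, 0.0147), with a median of −0.31. Under TPM scaling CKX9, CYP711A6 and CCD1 lost their calls, as CKX9 did when any of 5 libraries was left out (any bHLH6-OV replicate, or WT replicates 1 or 2), CYP711A6 without bHLH6-OV or WT replicate 1, and CCD1 without bHLH6-OV replicate 2 or WT replicate 3. The largest change was that of D14L, the karrikin receptor and a homologue of D14, at 2.75, 3.47 and 2.73 FPKM in bHLH6-OV shoots against 32.8, 17 and 36.9 in WT shoots (log2 −2.84, 0.00857). D14L varied widely among replicates elsewhere, for example 4.45, 34.6 and 34.3 FPKM in WT low Pi shoots. In spx4 shoots 0 of 11 were called by limma, beside 2.14% of all genes, with a median of 0.09. At an unadjusted limma p under 0.05 there were 2 of 11, beside 3085 of all 19990 genes tested. Between the lines, 2 of 13 in roots and 5 of 11 in shoots were called, beside 6.58% and 32% of all genes. D14L again had the largest difference of the listed genes in shoots (spx4 minus bHLH6-OV 2.98, limma adjusted p = 0.00713). IPA1, called higher in spx4 roots (0.37, 0.0354), lost its call in 7 of 14 alternatives, among them the replicate block on these groups (0.0527) and leaving out spx4 replicates 2 or 3 or any bHLH6-OV replicate. In shoots CKX9 lost its call in 9 of 14 alternatives and CCD1 in 7. Under TPM scaling CKX9, CCD1 and the D53 copy lost theirs, and ASP1 (−0.37, 0.0294) and PHR2 (−0.26, 0.0292) were called lower in spx4 shoots.

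The members moved together to different degrees over the 12 libraries of a tissue, which share groups and normalisation. On log2(FPKM + 1), the Pearson correlation over 12 root libraries was 0.98 for NSP1 with NSP2, 0.95 for D10 with NSP1 and −0.93 for D10 with D14, and over 12 shoot libraries 0.95 for D14 with D3 and −0.88 for D17 with D14. Of 8440 candidate genes with a description and 5 FPKM or more in at least 1 root group, the one most like NSP2 was LOC_Os09g15240. This gene is described as a carotenoid oxygenase (r = 0.991) and was also among the 3 most like NSP1 (r = 0.991). Of the root groups it reached 5 FPKM in WT at low Pi alone, so it had to differ to be a candidate. It averaged 10.7 ± 3.55 FPKM in WT low Pi roots and 0.788 ± 0.0576 in WT high Pi roots (SD, n = 3), and 0 in all shoots. The candidate most like D14 in roots was LOC_Os01g25484, described as a nitrite and sulphite reductase (r = 0.994), at 246 ± 49.6 FPKM in WT low Pi roots and 615 ± 27.8 in WT high Pi roots. LOC_Os07g08970, an AAA-type ATPase, was among the 3 most like D53 in shoots (r = 0.976) and the 3 most like NSP1 in roots (r = 0.991).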

How the data were processed

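Per the submitters' processing notes, reads were handled with HISAT2, StringTie, featureCounts 1.5.0-p3 and DESeq2; the genome build is not given in the sources used here. The authors deposited FPKM per gene for 24 libraries, and gene lengths. FPKM times length gave whole reads (within 0.01) for 100% of values, 20971026 to 29645159 reads per library, and the divisor behind FPKM was 1.153 to 1.299 times these reads in roots and 0.7329 to 1.039 times in shoots. Limits and floors of counts cover counting error only.

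limma 3.58.1 (R 4.3.3) was fitted to log2(FPKM + 1), 1 mean per group, with a trended robust empirical Bayes variance, over the 12 libraries of a tissue (22090 root genes and 19990 shoot genes with mean FPKM of at least 1), or over 24 libraries for comparisons of tissues (24643 genes); p-values were Benjamini-Hochberg adjusted over all genes tested. The fits were tested on data simulated with independent noise, with changes planted only in genes above about 1 FPKM in WT at high Pi. D17, D10 and NSP2 were below that level in WT high Pi roots, so the simulation does not cover them there. Labels call the libraries biological replicates.

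Alternatives were another pseudocount (0.1), no filter, TPM and median-of-ratios scaling, fits on the compared groups, replicate blocks, and leaving out each library. Same-numbered bHLH6-OV and spx4 root libraries deviated together (correlations 0.23, 0.29 and 0.48, against −0.36 to 0.19 between unlike numbers); the pairing comes from the values, not the labels. No other pair of groups had all 3 correlations over 0.1. WT high Pi and bHLH6-OV libraries still matched best by number in both tissues. Their correlations were 0.15, 0.16 and 0.08 in roots, against −0.12 to −0.03 between unlike numbers. In shoots they were 0.09, 0.16 and 0.21, against −0.20 to 0.07. A replicate block over only these groups was not run. Named genes were the members, a list of 17 related genes, and the 3 candidates most like each member by Pearson correlation. Candidates had a description and a mean of at least 5 FPKM in at least 1 group of the tissue. Members and lists were chosen with earlier results of these data known. The reference annotation, of another assembly, was used for names and for the gene lengths set beside those of D14 and D10. D17, D10, D14 and D3 matched by name, and D53, NSP1 and NSP2 had no gene of that name there.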

Additional observations from a re-analysis of the deposited data

Results flagged for a closer look

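Each result here was picked out because the change in roots differed from the change in shoots by a limma test of the difference (adjusted p under 0.05 over 24643 genes). Values are the root effect minus the shoot effect, on log2(FPKM + 1). For low against high Pi in WT, the members gave 2.27 for NSP1, 2.51 for NSP2, 0.70 for D3 and −1.04 for D53. Among related genes the values were 1.90 for DLK2, 1.25 for CYP711A2, 0.74 for CKX9, 0.66 for IPA1, −0.32 for PHR2, −0.57 for CYP711A6, −0.79 for the D53 copy (D53-like) and −1.29 for CYP711A5. For NSP1, NSP2 and CYP711A2 the shoot levels were at or near 0 reads, so the value is nearly the root effect alone. NSP2 passed the filter through low Pi roots, so it had to differ to be tested. DLK2 had 0, 1 and 0 reads in the WT high Pi root libraries, and its root levels were below the filter. The CKX9 call was lost with a pseudocount of 0.1 (adjusted p = 0.066) and with TPM scaling (0.135).

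For bHLH6-OV against WT at high Pi, D3 gave 0.79, CCD1 0.65, D14L 3.57, CYP711A2 −0.89 and IPA1 −0.61. D14L varied widely among replicates of several groups. CYP711A2 had 0 reads in all 12 shoot libraries, so its value is the root effect alone.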

How the results depend on the processing

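Of the members' values recomputed under an alternative, 299 kept their call and direction and 33 lost a call. Another 699 were called in neither fit with the same sign or at 0, 29 were called in neither and changed sign, 13 gained a call, and 1, D3 between WT tissues, gained one with the opposite sign. Members called in bHLH6-OV roots numbered 1, but 0 with no filter, 0 with the replicate block, and 0 to 0 when single libraries were left out. Those in bHLH6-OV shoots numbered 2, but 0 with TPM scaling, 1 with median-of-ratios scaling and 0 to 2 with single libraries left out. Those between spx4 and bHLH6-OV numbered 0 in roots, but 1 with only the groups compared and 1 with the replicate block over those groups (added after seeing the data), and 2 in shoots, but 1 with TPM scaling, 1 with median-of-ratios scaling and 1 to 3 with single libraries left out. Under TPM scaling the difference of spx4 minus bHLH6-OV in shoots reversed to −0.074 for CCD1 and −0.257 for PHR2, and WT root minus shoot to 0.047 for PHR2 and 0.474 for D3. TPM scaling divides each library by its FPKM sum. These sums were 841900 to 879800 in spx4 shoots and 619400 to 732300 in bHLH6-OV shoots. In WT at high Pi they were 549300 to 569300 in roots and 763800 to 845900 in shoots. The cause of the differing sums was not tested. TPM scaling moved the share of calls that were higher from 33.9% to 22.8% in spx4 shoots, from 46.1% to 58.3% in low Pi shoots, from 57% to 14.5% between the lines in shoots (46.2% with median-of-ratios scaling), from 50.8% to 30.1% and 49.3% to 33.3% for the tissue differences of bHLH6-OV and low Pi, and from 54.7% to 68.1% between WT tissues. With the replicate block over all groups of a tissue, the D3 call in bHLH6-OV roots was lost (adjusted p = 0.0557) and D10 was called between WT tissues (0.0492). D10 in roots (21 to 125 reads) and the NSP genes in shoots are limited by depth.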

Other observations

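A further 3 genes carry the DUF4033 domain annotation that D27 belongs to. They were chosen after their values were seen, and none of them is D27. LOC_Os08g02210 averaged 203 ± 57.9 FPKM in WT low Pi shoots, 243 ± 16.9 in bHLH6-OV shoots, 347 ± 21.4 in spx4 shoots and 356 ± 38 in WT high Pi shoots (SD, n = 3), and under 0.4 FPKM in each root library. It fell in low Pi shoots (log2 −0.84, limma adjusted p = 0.00342, −0.58 without WT low Pi shoot replicate 1) and in bHLH6-OV shoots (−0.54, 0.046), the second a call lost in 9 of the alternatives. LOC_Os05g04070 averaged 24.5 ± 5.52 FPKM in WT low Pi shoots and 33.7 ± 2.89 in WT high Pi shoots (log2 −0.46, adjusted p = 0.0446), a call lost in 8 alternatives, among them leaving out WT low Pi shoot replicate 1 (−0.28, 0.145). It was called higher in spx4 shoots (43.2 FPKM) than in bHLH6-OV shoots (25.6), in all 14 alternatives too. In bHLH6-OV roots it was called higher than in WT roots (1.65 against 0.975 FPKM), a call lost in 4 of 13 alternatives. Its bHLH6-OV effect differed between tissues, in all 18 alternatives too. LOC_Os05g04090 had 0 reads in all 24 libraries.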
